A study of Mus musculus with 6 samples.

Results

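The neuropeptide genes of the cerebral cortex were compared between mice given the deacetylase inhibitor SAHA and mice given vehicle. The set holds 10 genes chosen by symbol: Npy, Sst, Vip, Cck, Tac1, Penk, Pdyn, Crh, Cort and Adcyap1. All 10 were found among the 19938 genes measured, each on 1 probe set that pairs with no other gene, so no choice between probe sets was needed. SAHA (suberoylanilide hydroxamic acid, vorinostat) blocks the zinc-dependent deacetylases, which strip acetyl groups off histones and other proteins. Wild-type 129S6/SvEv mice, 8 to 12 weeks of age in both groups, were injected intraperitoneally for 21 days with 20 mg per kg SAHA or with vehicle, named saline in the sample titles, and bilateral frontal cortex was taken 1 day after the last dose. Each group had 3 libraries, each on 1 whole-transcript array, and this number limits the precision. The labels do not say whether each library is a separate mouse, so each p-value covers only the spread among these libraries, and that spread may be technical.

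Neuropeptides are made as long precursors, cut by prohormone convertases inside dense-core granules, and released during strong firing to act on G-protein-coupled receptors. In the cortex most of these precursors mark classes of inhibitory interneuron: Sst marks a large class, Vip another, and Npy several. Cck is also made by excitatory neurons, and Tac1, Penk and Pdyn are far more abundant in the medium spiny neurons of the neighbouring striatum than in cortex. Transcription of several of these genes follows cAMP and neuronal firing through the cAMP response element (CRE), a short promoter sequence bound by CREB and its relatives.

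Values are log2 signals, so a difference of 1 is a doubling, and each difference is SAHA minus saline. Array medians over all probe sets ran from 6.66 to 6.71 in saline and from 6.72 to 6.75 in SAHA. Saline replicate 1 and SAHA replicate 3 stood apart in sex-linked transcripts: Xist, the RNA of the inactive X chromosome, was at 10.9 in the former and between 4.63 and 4.88 in the 5 other libraries, and the Y-linked Uty was at 6.74 in the latter and between 7.93 and 8.24 elsewhere. Results for the peptide genes are therefore given with and without these 2 libraries where they lead. As the label of the tissue implies, 9 of 9 measured excitatory neuron markers and 20 of 25 interneuron genes that encode no peptide had a mean signal at or above 6.94, the median of all genes. In a bulk sample, fewer cells of a type and less RNA per cell cannot be told apart.

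Cort was higher in SAHA, and Tac1 and Vip were lower, by differences that did not pass the test over all genes. The other 7 genes differed by between -0.17 and 0.10. limma with Benjamini-Hochberg adjustment called 0 of the 10 genes at a threshold of 0.05, with a lowest adjusted p of 0.143, and it called 0 of all 19938 genes (0%). At an unadjusted p under 0.05 there were 3 of the 10, 1 higher and 2 lower, where 17.4% of all genes lay under it, 11.9% higher and 5.56% lower. Beside that background the count of 3 in 10 is given as a description only. Differences were below 0 for 8 of the 10 genes and above 0 for 2, where 47.1% of all genes were below and 52.9% above, with a median of -0.059 against 0.011. Direction moved with signal, however: of the brighter genes, those with a mean signal of at least 6.94, which hold 8 of the 10, 66.4% were lower and the median was -0.039. Of those 8 peptide genes 6 were lower, with a median of -0.072. All 3 SAHA libraries lay on one side of all 3 saline libraries for 2 of the 10, 1 above and 1 below, where 23.9% of all genes did so, 13.6% above and 10.4% below. With 3 against 3, the exact two-sided permutation test cannot go below 0.10, so it could call no single gene.

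**Figure D1:**
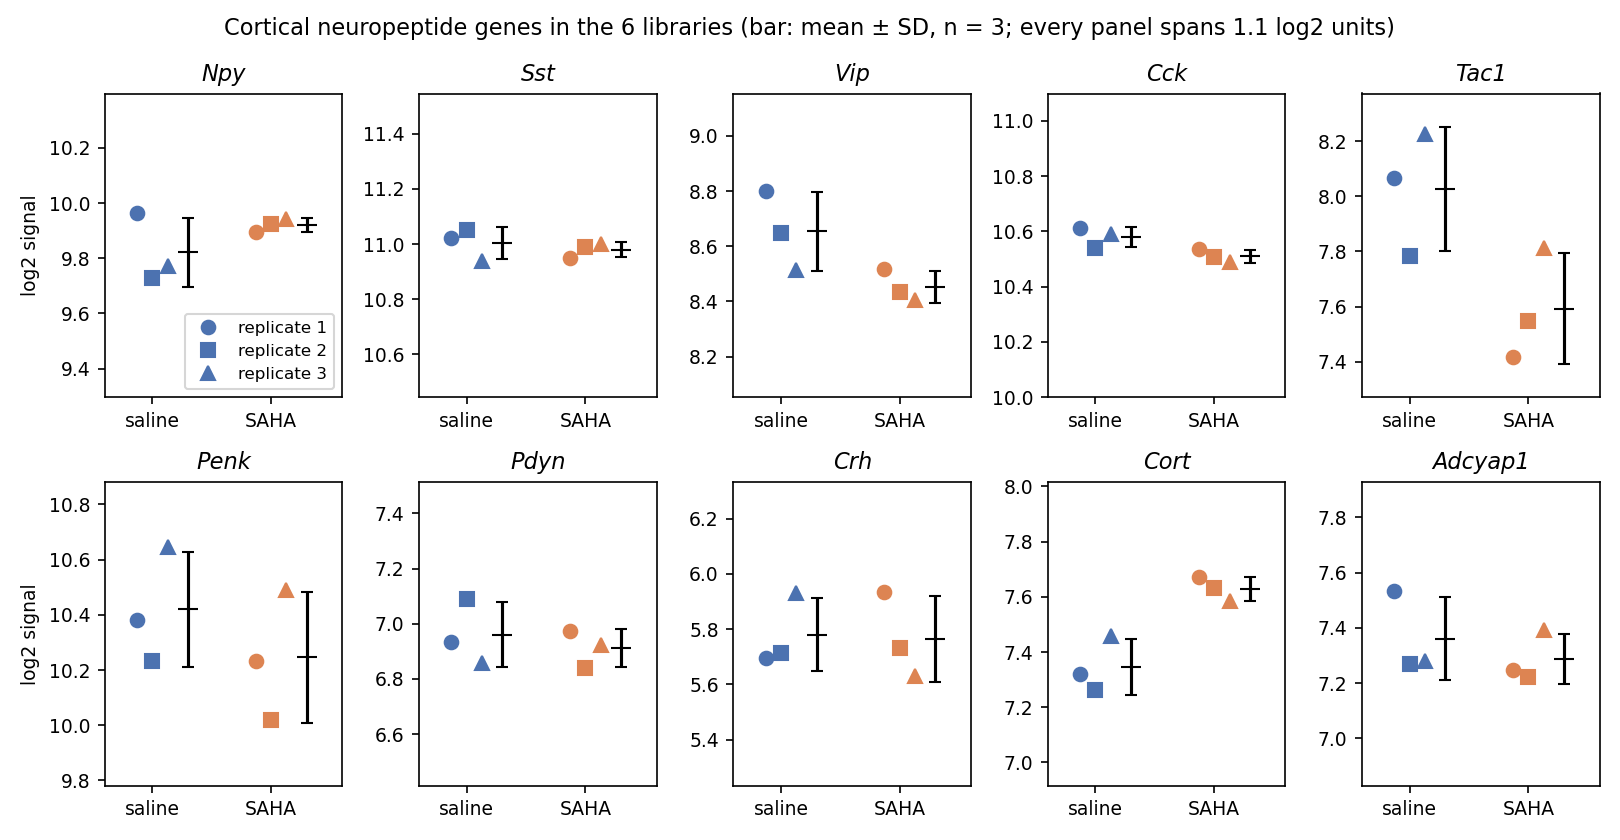
Log2 signal (vertical axis) of the 10 neuropeptide genes in each library, 1 panel per gene, with saline in blue and SAHA in orange, the replicate number shown by the shape of the point, and the black bar giving mean ± SD (n = 3). The SAHA libraries lie above the saline libraries only for Cort, from 7.58 to 7.67, and below them only for Cck, from 10.49 to 10.54, and each panel spans 1.1 log2 units about its own centre.

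Stretches of 4 promoters are shown, those of the 3 genes at an unadjusted p under 0.05 and that of Sst, whose CRE is a textbook example. Each line gives the 120 bases before the transcription start, 5′ to 3′ on the gene's strand, from RefSeq on GRCm38.p6. Capitals mark the full element TGACGTCA and its core TGACG, searched on both strands, so that CGTCA is the core on the opposite strand. The stretch of Sst is chr16:23890845-23890964 on the minus strand, that of Vip chr10:5639098-5639217 on the plus strand, that of Tac1 chr6:7554941-7555060 on the plus strand and that of Cort chr4:149126764-149126883 on the minus strand.
Sst: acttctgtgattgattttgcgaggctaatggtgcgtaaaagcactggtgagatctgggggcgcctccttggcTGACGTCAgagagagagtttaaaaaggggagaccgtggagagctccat
Vip: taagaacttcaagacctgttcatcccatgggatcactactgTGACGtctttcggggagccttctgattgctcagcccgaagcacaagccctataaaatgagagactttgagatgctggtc
Tac1: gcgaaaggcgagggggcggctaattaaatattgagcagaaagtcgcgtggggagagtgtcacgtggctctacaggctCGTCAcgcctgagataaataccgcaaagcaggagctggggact
Cort: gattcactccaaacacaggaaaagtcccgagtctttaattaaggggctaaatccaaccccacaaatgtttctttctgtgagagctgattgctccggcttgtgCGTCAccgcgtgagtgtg

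The search covered windows of 300 bases, from 250 before to 50 after each start, of which 10 were given for 8 of the 10 genes, some genes having more than 1. Penk and Crh had no window and were not searched. The full TGACGTCA was found in 1 of the 8, Sst, where it begins 48 bases before the start, and in 1.79% of all 32851 windows. The core TGACG, which every full element also contains, was found in 6 of the 8, namely Sst, Vip, Tac1, Cort, Cck and Adcyap1, and in 7 of their 10 windows, against 20.8% of all windows. Its first base lay 79 bases before the start in Vip, 43 in Tac1, 18 in Cort and 47 in Cck, and a second match in Tac1 lay at 197. Neither Npy nor Pdyn had the core in the windows searched. The AP-1 element TGACTCA was found in 0 of the 8 and in 5.2% of all windows. Of the 6 genes with the core, Cort was higher, at 0.28. The others were lower: Tac1 at -0.43, Vip at -0.20, Adcyap1 at -0.074, Cck at -0.070 and Sst at -0.025. All 6 were among the brighter genes, of which 66.4% were lower. A link between this match and the direction was not tested. A match of these letters is a description and not a site of binding.

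Somatostatin and its close relative cortistatin are both made by cortical interneurons, and these peptides share receptors. Cort had log2 signals of 7.32, 7.26 and 7.46 in saline replicates 1 to 3 and of 7.67, 7.63 and 7.58 in the SAHA replicates. Every SAHA library lay above every saline library. The means were 7.35 ± 0.10 and 7.63 ± 0.044 (SD, n = 3), a difference of 0.28 (SE 0.070, 95% confidence interval 0.12 to 0.44) or 1.22-fold, at an adjusted p of 0.143 in limma. Of the 17 alternative settings, 17 kept the difference above 0 and at an unadjusted p under 0.05, between 0.24 and 0.36, and none passed adjustment, with adjusted p between 0.0903 and 0.425 in limma. Leaving out saline replicate 1 and SAHA replicate 3 together gave 0.29. The nearest RefSeq gene upstream of Cort, Cenps, a centromere protein gene that does not overlap it, differed by 0.037 (SE 0.079). Sst was at 11.02, 11.05 and 10.94 in saline and at 10.95, 10.99 and 11.00 in SAHA. The groups overlapped, at a difference of -0.025 (95% confidence interval -0.16 to 0.11), and its sign turned after quantile normalization, to 0.030, and after cyclic loess, to 0.029. The interval excludes a change of Sst as large as that of Cort on the deposited values, although the difference between the genes was not tested.

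Vip, the peptide of interneurons that mainly inhibit other interneurons, was at 8.80, 8.65 and 8.51 in saline and at 8.52, 8.44 and 8.41 in SAHA. The groups met at 1 point: the lowest saline library, replicate 3, lay just below the highest SAHA library, replicate 1. The difference was -0.20 (SE 0.083, 95% confidence interval -0.39 to -0.0081), a level 1.15-fold higher in saline, at an adjusted p of 0.272 in limma. It leaned on saline replicate 1, without which it was -0.13, and leaving out both that library and SAHA replicate 3 gave -0.10. Quantile normalization and cyclic loess each gave -0.15, and 9 of the 17 alternatives kept an unadjusted p under 0.05. Npy, made by several interneuron classes, was at 9.96, 9.73 and 9.77 in saline and at 9.90, 9.92 and 9.94 in SAHA. Saline replicate 1 was the highest of the 6, and the other saline libraries were the lowest, so the groups overlapped. The difference was 0.099 (SE 0.074) over all libraries, 0.17 without saline replicate 1 and 0.054 without saline replicate 2.

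Cck, cholecystokinin, is the peptide of basket interneurons and of many pyramidal neurons. It was at 10.61, 10.54 and 10.59 in saline and at 10.54, 10.51 and 10.49 in SAHA. The SAHA libraries lay below the saline libraries, though the nearest libraries of the groups both read 10.54, and the difference was -0.070 (SE 0.056, adjusted p 0.534 in limma). Quantile normalization gave -0.018 and cyclic loess -0.014. Cck and Sst varied little between libraries of a group: 3.65% of all genes had a smaller pooled SD than Cck, at 0.031, and 10.4% a smaller one than Sst, at 0.045.

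Tac1 encodes substance P and neurokinin A, and Penk encodes the enkephalins. Tac1 was at 8.07, 7.78 and 8.23 in saline and at 7.42, 7.55 and 7.81 in SAHA. SAHA replicate 3 lay above saline replicate 2, so the groups overlapped. The difference was -0.43 (SE 0.13, 95% confidence interval -0.74 to -0.12), the farthest from 0 among the 10 genes, with a level 1.35-fold higher in saline at an adjusted p of 0.187 in limma. It kept its sign in 17 of 17 alternatives, between -0.55 and -0.33, with an unadjusted p under 0.05 in 16 of them and adjusted p between 0.0963 and 0.399 in limma. Leaving out saline replicate 1 and SAHA replicate 3 together gave -0.52. Penk was at 10.38, 10.23 and 10.64 in saline and at 10.23, 10.02 and 10.49 in SAHA. Replicate 3 was the highest library and replicate 2 the lowest in both groups, and the difference of -0.17 (SE 0.14, 95% confidence interval -0.50 to 0.15) was smaller than the pooled SD within groups, 0.22. Single libraries moved it both ways: leaving out saline replicate 3 gave -0.060 and SAHA replicate 2 -0.059, but leaving out saline replicate 2 gave -0.27, SAHA replicate 3 -0.29, and saline replicate 1 together with SAHA replicate 3 -0.31.

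**Figure D2:**
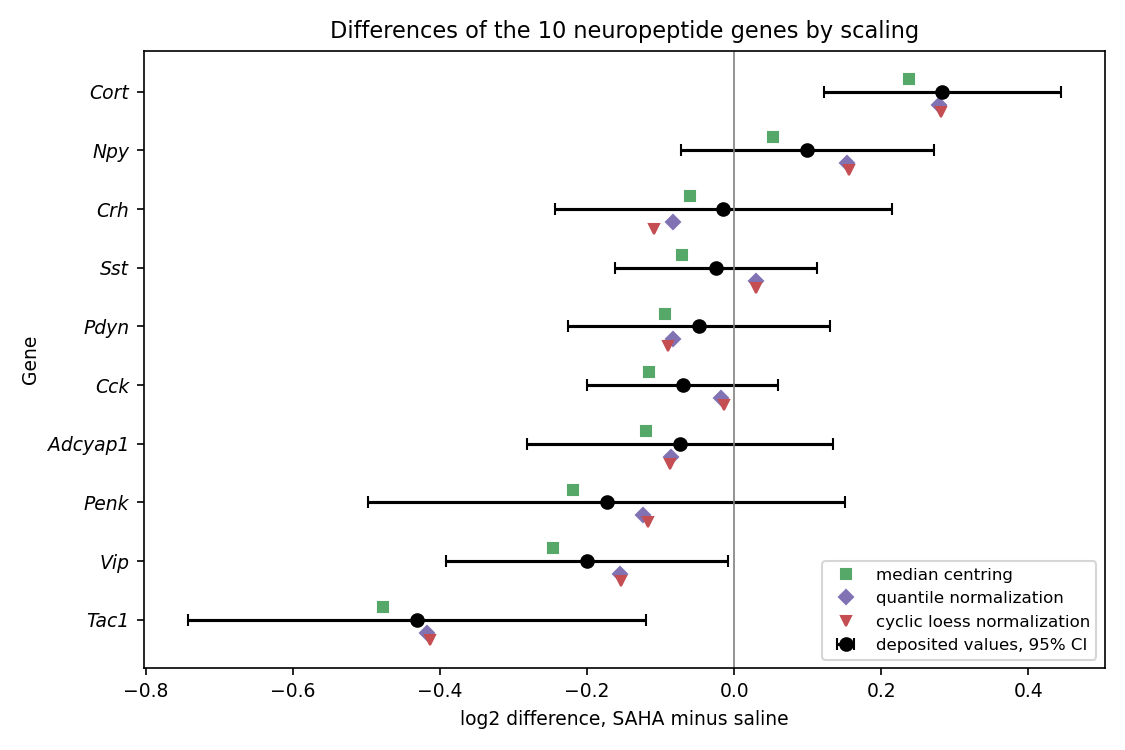
Difference in log2 signal, SAHA minus saline (horizontal axis), of each neuropeptide gene on the deposited values, with its 95% confidence interval in black, and after 3 other scalings as coloured points. The intervals of Cort, Vip and Tac1 exclude 0 on the deposited values, and Sst changes side, from -0.025 to 0.030, after quantile normalization.

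Tac1 and Penk varied more between libraries of a group than most genes: 93.7% of all genes had a smaller pooled SD than Tac1, at 0.21, and 94.7% a smaller one than Penk. Most, not all, markers of striatal medium spiny neurons had the same highest libraries. Of 9 measured markers, 6 were highest in replicate 3 of both groups, as were Tac1 and Penk, where 11.2% of all genes were. These were Drd1 and Drd2, dopamine receptors; Rgs9, a regulator of G-protein signalling; Pde10a, a phosphodiesterase; Gpr6, an orphan receptor; and Rarb, a retinoic acid receptor. Isl1 was highest in replicate 3 in 0 of the 2 groups, as was Pdyn, the other peptide gene of these neurons. Rgs9 was at 7.07, 7.09 and 7.76 in saline and at 7.03, 6.89 and 7.52 in SAHA. Pde10a was at 8.79, 8.74 and 9.38 in saline and at 8.57, 8.52 and 8.87 in SAHA. Both were thus well above their neighbours in the third library of each group, as the plot of striatal markers by library shows. The log2 of the summed signal of the 9 markers ran from 10.58 to 10.95 in saline and from 10.56 to 10.87 in SAHA, and these ranges overlapped. Between the groups, 5 of the 9 markers were higher and 4 lower in SAHA, with a median of 0.12, 1 at an unadjusted p under 0.05 (Isl1, higher) and 0 called by limma over all genes. Of the 5 brighter markers 1 was higher and 4 were lower (median -0.075), and leaving out SAHA replicate 3 gave a median of 0.024 over all 9. Pde10a differed by -0.32 (SE 0.18), Drd2 by 0.22 (SE 0.17) and Drd1 by -0.023 (SE 0.11). Without replicate 3 of both groups, an alternative chosen after the data were seen, Tac1 differed by -0.44 (SE 0.12) and Penk by -0.18 (SE 0.11). Over all libraries they differed by -0.43 and -0.17. In that setting 3 of the 9 markers lay at an unadjusted p under 0.05 in limma, 2 higher and 1 lower, where 12.7% of all genes did. The part of striatal tissue in the differences of Tac1 and Penk was not tested.

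**Figure D3:**
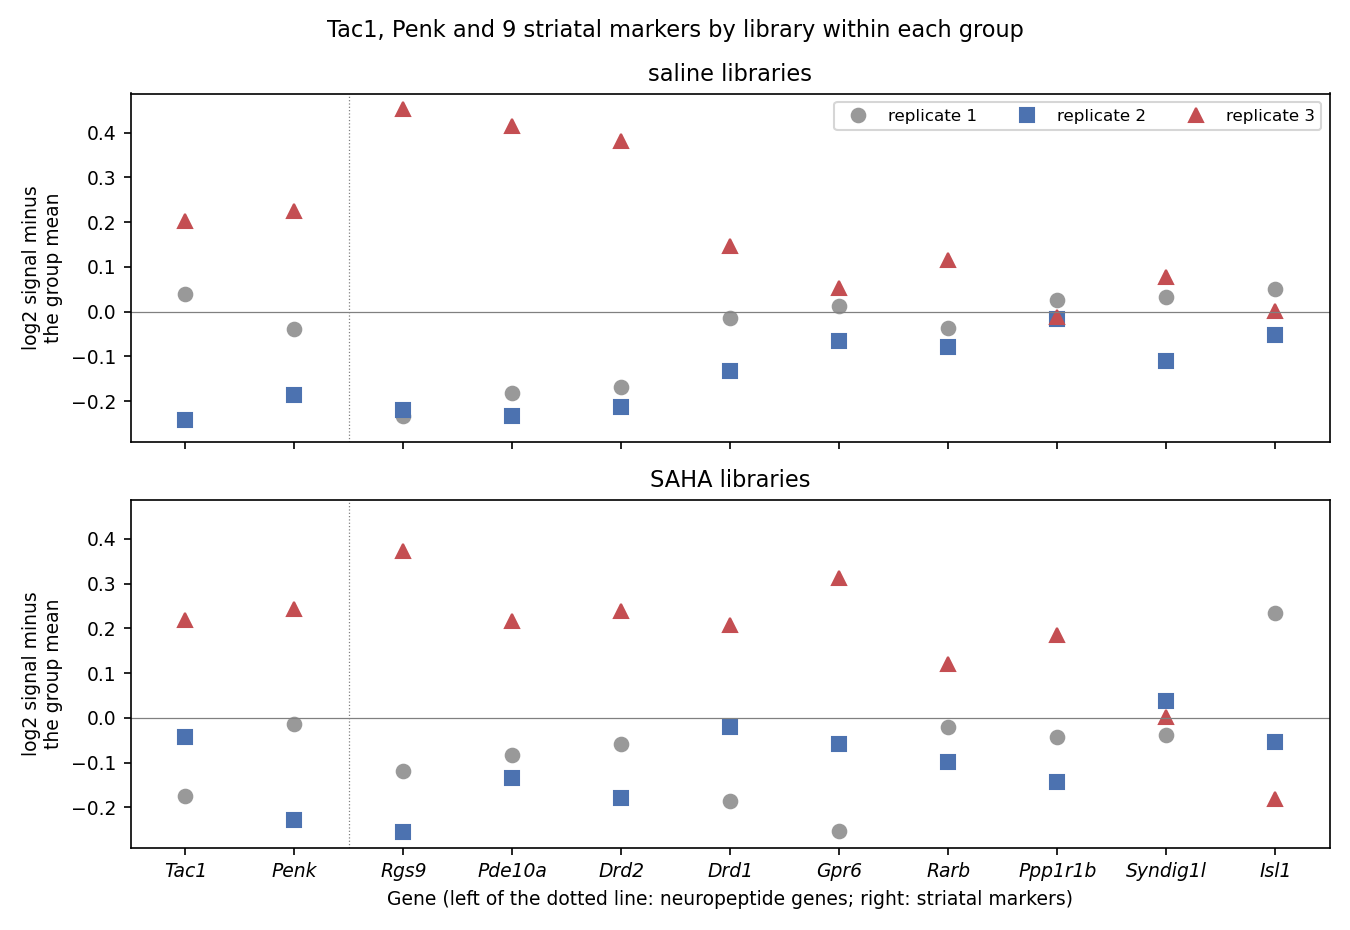
Log2 signal of each library minus the mean of its group (vertical axis) for Tac1, Penk and 9 markers of striatal medium spiny neurons (horizontal axis), with saline libraries above, SAHA libraries below and replicates shown by colour and shape. Replicate 3 is the highest library of both groups for Tac1, Penk and 6 of the 9 markers.

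Pdyn, which encodes the dynorphins, was at 6.93, 7.09 and 6.86 in saline and at 6.97, 6.84 and 6.92 in SAHA. The groups overlapped, and the difference was -0.048 (95% confidence interval -0.23 to 0.13). Crh, the corticotropin-releasing hormone that some cortical interneurons also make, was at 5.70, 5.71 and 5.93 in saline and at 5.94, 5.73 and 5.63 in SAHA. The values were interleaved, and the difference of -0.015 (95% confidence interval -0.24 to 0.21) changed sign in 5 of 16 alternatives. Adcyap1, which encodes PACAP, a relative of Vip, was at 7.54, 7.27 and 7.28 in saline and at 7.25, 7.22 and 7.39 in SAHA. Saline replicate 1 was the highest of the 6, and the difference of -0.074 (95% confidence interval -0.28 to 0.13) was 0.013 without it. Pdyn and Crh had mean signals below the median of all genes. In the RefSeq table a long noncoding gene overlaps each of Cck, Crh and Adcyap1, and its part in these signals was not tested.

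The receptors of these peptides differed in both directions. Of 21 receptor genes, 0 passed limma over all genes, with a lowest adjusted p of 0.146, and 8 lay at an unadjusted p under 0.05, or 38.1% against 17.4% of all genes. Of these, 5 were higher and 3 lower in SAHA, and the median difference was 0.025 against 0.011 for all genes. Signal bears on this: 13 of the 21, among them Sstr5, Cckar, Vipr2 and Oprk1, had a mean signal below 6.94, where 27.7% of all genes were lower and the median was 0.089. The count was 3 higher and 4 lower after median centring, and 1 higher and 3 lower with saline replicate 1 and SAHA replicate 3 left out. The groups did not overlap for 9 of the 21, or 42.9% against 23.9%. Oprk1, the kappa receptor for the dynorphins, was at 6.52, 6.44 and 6.59 in saline and at 6.15, 5.99 and 6.32 in SAHA. Its difference was -0.36 (SE 0.092), with all SAHA libraries below all saline libraries, beside a difference of -0.048 for Pdyn. Oprd1, the delta receptor for the enkephalins, was higher by 0.16 (SE 0.059), and Oprm1, the mu receptor, differed by -0.0038 (SE 0.060).

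Sstr5, a receptor for somatostatin and cortistatin, was at 5.54, 5.77 and 5.65 in saline and at 6.18, 5.94 and 5.89 in SAHA, a difference of 0.36 (SE 0.096). Sstr2, another receptor for both, was on the opposite side at -0.18 (SE 0.066), and Sstr1, Sstr3 and Sstr4 had overlapping groups. The receptors shared by VIP and PACAP were also on opposite sides. Vipr2 was at 5.90, 6.11 and 6.05 in saline and at 5.83, 5.52 and 5.77 in SAHA, a difference of -0.31 (SE 0.097). Vipr1 was higher by 0.16 (SE 0.056), and Adcyap1r1, which prefers PACAP, differed by 0.047 (SE 0.056). Crhr1, the main receptor of CRH in cortex, was higher by 0.24 (SE 0.080), while Crhbp, the binding protein that holds CRH inactive, differed by 0.011 (SE 0.072). Cckar was higher by 0.26 (SE 0.066), and Cckbr, the cholecystokinin receptor abundant in cortex, differed by 0.0056 (SE 0.064). Among the receptors of neuropeptide Y, Npy5r differed by -0.14 (SE 0.064), with groups that did not overlap, and Npy1r by -0.042 (SE 0.059). The tachykinin receptor Tacr1, on which substance P acts, differed by 0.059 (SE 0.11). The adjusted p of each receptor named here was at least 0.146 in limma.

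**Figure D4:**
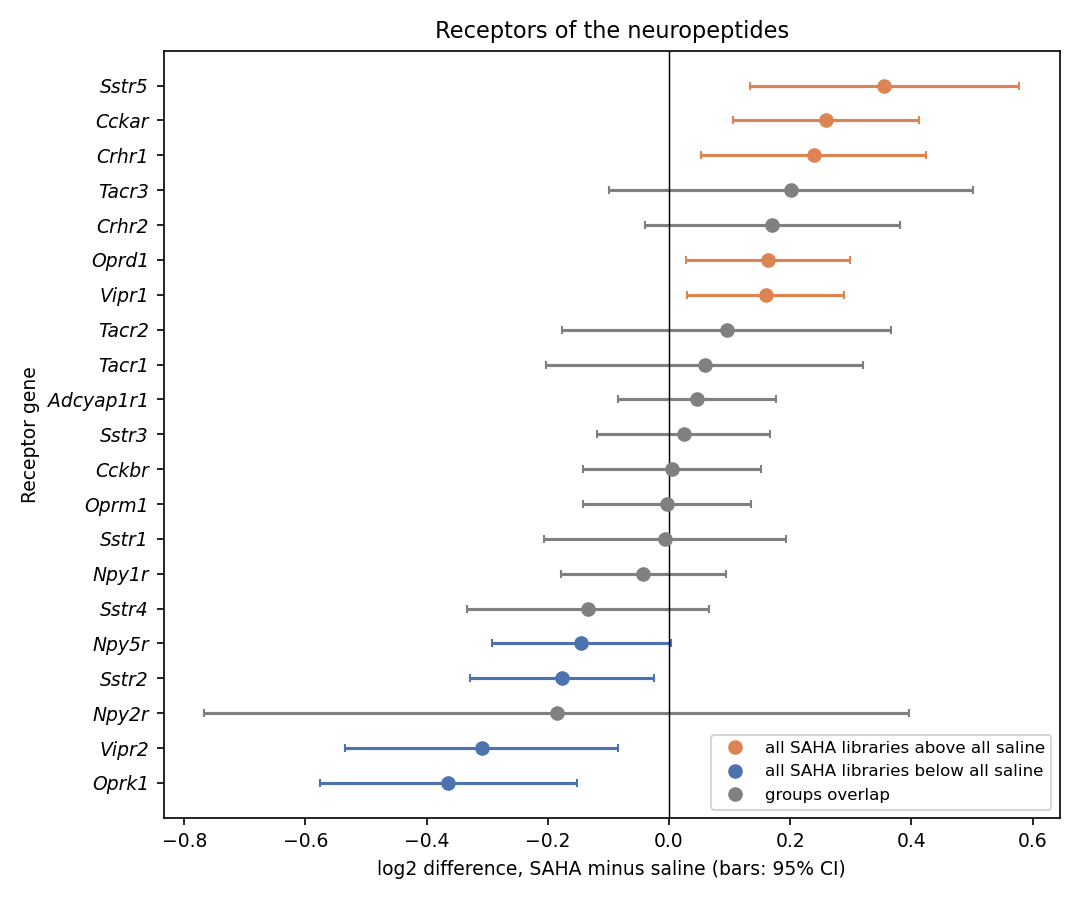
Difference in log2 signal, SAHA minus saline (horizontal axis), of the 21 receptor genes with 95% confidence intervals, coloured by whether the SAHA libraries all lay above (orange) or all below (blue) the saline libraries or overlapped them (grey). Separated groups are seen on both sides of 0, from -0.36 for Oprk1 to 0.36 for Sstr5.

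Among 13 other peptide precursors, 0 passed limma over all genes and 3 lay at an unadjusted p under 0.05, 2 higher and 1 lower, or 23.1% against 17.4% of all genes, with a median of 0.10. The count was 0 higher and 2 lower after median centring, and 0 higher and 1 lower after quantile normalization or without SAHA replicate 3. Of these 13 precursors 6 had a mean signal below the median of all genes, where the median difference of all genes was 0.089. Of the 7 brighter ones 4 were higher and 3 lower, with a median of 0.027. Grp, gastrin-releasing peptide, was at 7.36, 7.41 and 7.29 in saline and at 7.07, 7.00 and 7.09 in SAHA. The groups were far apart for their spread, at a difference of -0.30 (SE 0.062, adjusted p 0.120 in limma). Pnoc, the precursor of nociceptin, was higher by 0.25 (SE 0.10), and Gal, galanin, by 0.29 (SE 0.12). The machinery that cuts, amidates and stores the precursors had 13 of 16 genes below 0, with a median of -0.054 and 1 gene at an unadjusted p under 0.05. Of these 16 genes 15 were among the brighter genes, of which 66.4% were lower. The gene under that level was Qpct, the cyclase that forms pyroglutamate ends, at -0.17 (SE 0.060), while the convertase Pcsk1 differed by -0.14 (SE 0.083) and Furin by 0.096 (SE 0.057). Quantile normalization moved the median of this list to -0.016 and cyclic loess to 0.00031, so its sign was not stable under scaling. Of 11 genes for peptide-degrading enzymes and the CRH binding protein, 0 lay at an unadjusted p under 0.05 in limma, with a median of -0.00057, and Ece2, Mme and Dpp4 differed by -0.14, -0.16 and -0.13. Of 12 CRE-binding factors, coactivators and kinases, 0 did so either, with a median of -0.021, and Creb1, Atf2 and Crtc2 differed by -0.094, -0.11 and 0.14. A variance trend in limma put 1 of these 12 under that level, and 0 passed adjustment.

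Interneuron genes that encode no peptide lay on both sides of 0. Of 25 measured, 12 were higher and 13 lower, with a median of -0.0052, 2 at an unadjusted p under 0.05 and 0 called by limma. After median centring 7 were higher and 18 lower, with a median of -0.051, and of the 20 brighter ones 8 were higher and 12 lower on the deposited values. Lhx6, a factor of the lineage that gives rise to Sst and Pvalb interneurons, was at 7.28, 7.40 and 7.28 in saline and at 7.46, 7.51 and 7.54 in SAHA. Its groups did not overlap, at a difference of 0.18 (SE 0.062), and Adarb2, which marks the lineage of Vip interneurons, was at -0.13 (SE 0.057), also without overlap. Some other genes of each lineage lay on the opposite side with overlapping groups. Pvalb, Sox6 and Satb1, of the Lhx6 lineage, differed by -0.10 (SE 0.074), -0.080 (SE 0.090) and -0.047 (SE 0.084). Of genes of the other lineage, Npas1, Calb2 and Nr2f2 differed by 0.14 (SE 0.081), 0.079 (SE 0.11) and 0.076 (SE 0.13), and Prox1 by -0.14 (SE 0.078). The pan-GABAergic enzymes Gad1 and Gad2 differed by -0.0052 (SE 0.059) and 0.034 (SE 0.059). Slc32a1, also pan-GABAergic, differed by 0.085 (SE 0.059) and Reln by -0.098 (SE 0.056), both without overlap. In this list 2 genes had all SAHA libraries above all saline libraries and 2 below, or 16% against 23.9% of all genes.

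Markers of other cells that a dissection can hold were measured beside these values. Hypothalamic markers, several of them peptides, were higher for 5 of 7 genes, with a median of 0.16. At an unadjusted p under 0.05 in limma were 3 of the 7, or 42.9% against 17.4% of all genes. The median was 0.059 without SAHA replicate 1 and 0.065 after cyclic loess, and the count was 1 after either quantile or cyclic loess normalization and without saline replicate 3. The log2 of their summed signal ran from 9.27 to 9.35 in saline and from 9.51 to 9.55 in SAHA. Oxt, oxytocin, is the brightest of the 7 and weighs most in this sum, so these ranges largely follow Oxt. The other 6 of the 7 had a mean signal below the median of all genes. Of all genes in that dimmer range 27.7% were lower, with a median of 0.089. Oxt was at 7.63, 7.66 and 7.77 in saline and at 8.10, 8.08 and 8.15 in SAHA. Its difference was 0.42 (SE 0.064) at an adjusted p of 0.116 in limma, and it passed with a variance trend, at 0.0337. Avp, vasopressin, differed by 0.19 (SE 0.062) and Nkx2-1, a factor of the ventral forebrain, by 0.31 (SE 0.11). Hcrt, Pmch, Pomc and Sim1 had overlapping groups, with Sim1 differing by 0.16 (SE 0.11). The part of these markers in the differences of Crh, Pdyn and Adcyap1 was not tested. Choroid plexus markers were higher for 5 of 7 genes (median 0.14) and endothelial markers for 5 of 6 (0.073), with 1 of each at an unadjusted p under 0.05, Aqp1 at 0.42 (SE 0.068) and Slco1a4 at 0.23 (SE 0.067). The choroid plexus median was 0.024 without saline replicate 1 and 0.068 after cyclic loess. Of the 7 choroid plexus markers 5 were in the same dimmer range, and of the 2 brighter ones 1 was higher and 1 lower (median -0.074). Oligodendrocyte markers were lower for 6 of 7 (-0.047), and this rested on single SAHA libraries: leaving out SAHA replicate 3 gave 7 of 7 lower, a median of -0.21 and 4 at an unadjusted p under 0.05, and leaving out SAHA replicate 2 gave a median of 0.029. Quantile normalization gave 4 of the 7 higher. Astrocyte markers were lower for 5 of 8 (-0.037) and microglial markers for 4 of 8 (-0.034), with 0 oligodendrocyte, 0 astrocyte and 1 microglial marker under that level over all libraries, the last being Aif1 at -0.21 (SE 0.062). Excitatory neuron markers had a median of 0.031 and 2 of 9 under it, Neurod6 at -0.23 (SE 0.081) and Emx1 at 0.23 (SE 0.080). All 8 astrocyte, 7 oligodendrocyte and 9 excitatory neuron markers were among the brighter genes, of which 66.4% were lower, with a median of -0.039. So were 5 of the 6 endothelial markers, 4 higher and 1 lower (median 0.055). Of the 8 microglial markers 5 were brighter, 3 higher and 2 lower (median 0.024). limma called 0 of the genes in these lists over all genes.

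The genes whose pattern over the 6 arrays was most like that of Cort and Tac1, the 2 peptide genes of smallest p, were sought among 9643 of the 9969 brighter genes, by Pearson's r, with predicted genes and chemosensory receptors left out. For Cort these were Prex1 (r 0.991), a Rac exchange factor, Neurod2 (0.984), a factor of excitatory neurons, and Mir345 (0.984), a microRNA gene. Their differences were 0.11, 0.10 and 0.34. For Tac1 they were Socs6 (0.994), a suppressor of cytokine signalling, Trim59 (0.990), a ubiquitin ligase, and Gnpat (0.987), an enzyme of ether lipid synthesis, with differences of -0.13, -0.44 and -0.15. The 6 arrays share the group difference, and the genes were picked as the closest of many, so these r values describe the arrays only.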

How the data were processed

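Per the submitters' processing notes, the authors used Affymetrix Expression Console and RMA, with no version named, and the deposited values are log2 signals per probe set, from 1.43 to 14.2. RMA includes a background correction, a normalization between arrays and a summary over probes, so a shift of 1 array spreads over its probe sets. Per the labels' protocols, a whole-transcript kit amplified 200 ng of total RNA. For scan dates, none is given in the sources used here.

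There were 35556 probe sets: 21789 with a single symbol, 1621 with more than 1 and 12146 unnamed. A gene was its brightest probe set of 1 symbol (19938 genes); 19855 matched the RefSeq table of GRCm38.p6 by Entrez identifier, and 0 symbols changed. Groups were compared in limma 3.58.1 (lmFit, eBayes; R 4.3.3) with neither block nor filter, two-sided, adjusted by Benjamini-Hochberg over all genes at a threshold of 0.05. On simulated data the fit, at the same threshold, recovered 13.6% of log2 differences of 0.3, 66.4% of 0.6 and 90.8% of 1. Figures used matplotlib 3.10.9.

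The members, lists and alternatives were chosen with earlier results of these data known. Genes named were all members, the 3 genes of smallest p in each related list, receptors and the binding protein beside their peptide, and the 3 most alike genes; further striatal, hypothalamic and GABAergic markers were named after their values were seen. The lists held receptors, precursor processing, peptide degradation, other precursors, CRE-binding factors, interneuron genes and markers of 8 other cell classes. Of 169 genes named in them, 159 were measured. Alternatives were 3 scalings, a filter, the mean of probe sets, 2 variance trends, array weights, the replicate block and libraries left out.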

Additional observations from a re-analysis of the deposited data

How the results depend on the processing

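Over 17 alternatives, limma called 0 of the 10 peptide genes in each, and between 2 and 4 of them lay at an unadjusted p under 0.05. The share of all genes tested that lay under it ran from 10.4% to 19.4%. The median over the peptide genes was -0.10 after median centring, against -0.059 on the deposited values, and ran from -0.080 to -0.035 with 1 library left out. Differences of single peptide genes kept their sign and their side of the threshold in 159 comparisons and changed sign in 9, all of genes near 0. Sst was at 0.030 after quantile normalization and at 0.029 after cyclic loess. Crh was between 0.0028 and 0.061 without saline replicate 3, SAHA replicate 2 or SAHA replicate 3, at 0.011 without saline 1 and SAHA 3, and at 0.13 without replicate 3 of both groups, an alternative added after the data were seen. With 1 library left out, Crh ran from -0.10 to 0.061, Pdyn from -0.099 to 0.016 (the latter without saline replicate 2) and Adcyap1 from -0.13 to 0.013 (the latter without saline replicate 1). Of the 159 related genes limma called 0 on the deposited values and 1 when only genes of at least the median signal were tested, 1 under a variance trend and 1 under a robust trend, each time Oxt. Of 53 other named genes followed in the same way, Clic6 changed sign, at -0.0026 without replicate 3 of both groups. These 53 do not cover every gene named here. In that same setting all 7 hypothalamic markers were above 0, so Pomc and Pmch, below 0 over all libraries, changed sign as well. Over all genes limma called 0 on the deposited values, 27 of the genes of at least the median signal, 28 under a variance trend and 31 under a robust trend. Of the genes at an unadjusted p under 0.05, 2364 were higher and 1108 lower, which became 1434 and 2113 after median centring.

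Over all genes the replicate numbers showed no pairing of the samples. Deviations from the group means correlated at -0.105, -0.079 and 0.015 for numbers 1 to 3, and 0 of 3 libraries matched their own number best. A correlation over all genes may miss an order shared by few genes, such as the striatal markers highest in replicate 3 of both groups. With the replicate block, 4 of the 10 peptide genes lay at an unadjusted p under 0.05, where 15.5% of all genes did. Penk was among them (unadjusted p 0.0418 in limma). None of the 10 passed adjustment, the median stayed at -0.059, and 0 related genes were called.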
